A study of Mus musculus with 10 samples.

Results

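The RAB GTPase family was read in 10 mouse melanomas as 59 genes of the 52636 identifiers in the count table. Members were selected by name alone and by no measured value: they are the protein-coding rows whose Ensembl identifier carries, in the GENCODE M21 annotation of GRCm38, the symbol Rab followed by a number and at most a letter and a further digit. Of the 59 members, 55 passed the low-count filter that every gene had to pass. The other 4 had at most 15 counts (Rab33a), 25 counts (Rab39b), 4 counts (Rab9b) and 2 counts (Rab3c) in any tumour and were not tested.

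Polyadenylated RNA had been sequenced from 6 tumours that carried BrafCA, Cdkn2af/f and Arf6Q67L and from 4 control tumours that carried BrafCA and Cdkn2af/f. Every tumour thus had the engineered Braf allele and the floxed Cdkn2a alleles, and the groups differed by Arf6Q67L, which encodes the small GTPase ARF6 locked in its active state. The labels give each sample as a melanoma tumour and name no Cre driver, age, sex, litter or batch, so p-values measure only the spread between these tumours. The libraries were bulk tumour RNA, in which fewer cells of a type and less RNA per cell cannot be told apart.

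RAB proteins are small GTPases that mark the membranes of a cell and direct its vesicle traffic. A RAB is prenylated and carried in the cytosol by a chaperone, is loaded with GTP on its membrane by an exchange factor, binds effectors such as tethers and motors, and is switched off by a GTPase-activating protein. ARF6 works at the plasma membrane and on endosomes, where it governs endocytic recycling beside RABs, and in pigment cells RAB27A, RAB32 and RAB38 serve the melanosome, a lysosome-related organelle.

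Most members share the G3 motif of RAB proteins, which ends in the glutamine that takes part in GTP hydrolysis and lies in the region that Arf6Q67L alters in ARF6. An in-frame run of the 6 codons for tryptophan, aspartate, threonine, alanine, glycine and glutamine was present in the coding sequence of 49 of the 59 members in the GENCODE M21 transcripts. The members without this exact run were Rab20, Rab24, Rab25, Rab28, Rab29, Rab32, Rab38, Rab40b, Rab40c and Rab7b. The stretches below are from 3 subfamilies chosen as examples. They are given 5′ to 3′ on the coding strand, with the 18 bases of the motif in capitals and 6 bases on either side:
Rab4a: cagataTGGGACACGGCCGGCCAGgagcgg
Rab4b: cagattTGGGACACTGCTGGCCAGgagcgg
Rab8a: cagataTGGGACACGGCCGGCCAGgagcgg
Rab8b: cagataTGGGACACGGCGGGCCAGgaaaga
Rab5a: gaaataTGGGATACAGCTGGTCAAgaacgg
Rab5b: gagatcTGGGACACTGCTGGGCAGgagcga
Rab5c: gagatcTGGGACACAGCTGGCCAAgagcgc

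The stretch of Rab4a was identical to that of Rab8a over all 30 bases, while Rab4a and its own paralogue Rab4b matched at 27 of 30. Rab8a and Rab8b matched at 26 of 30 bases, Rab5b and Rab5c at 26, Rab5a and Rab5c at 24, and Rab5a and Rab5b at 22. Over whole transcripts the members were nonetheless distinct, since 53 of 59 shared no run of 50 bases with another member. Upstream of their starts, 36 of the 48 members with an entry in the RefSeq promoter table (GRCm38.p6) held the GC box GGGCGG on either strand within 250 bases, which was 75%, against 35.4% of all 27025 genes in that table. A gene may have several promoters there, and counted by promoter the GC box was in 40 of the members' 60 and in 32.7% of all 32851. The palindrome CACGTG, an E-box, was present upstream of 10.4% of the members and of 6.86% of all genes.

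Total counts lay between 28635414 and 40869091 per library. Arf6Q67L tumours had the library numbers 1 to 6 and control tumours 9 to 12, and the order of the libraries cannot be told apart from genotype. Arf6 itself, in counts-per-million (CPM) scaled with TMM factors, averaged 104 ± 21.3 in the 6 Arf6Q67L tumours and 93.0 ± 17.4 in the 4 control tumours (mean ± SD), and counts per gene do not show which allele a read came from. The defining melanocyte markers Tyr and Dct had no counts in any library, and the summed level of 7 melanocyte markers was 12.9 to 26.8 CPM in Arf6Q67L tumours and 14.0 to 21.3 CPM in control tumours. Nearly all of this sum was Mitf, at 11.1 to 26.1 CPM in Arf6Q67L tumours and 12 to 20.2 CPM in control tumours, while Tyrp1 and Mlana were at or near 0 and Pmel was under 1 CPM in every tumour.

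The tested RAB genes had a higher median level and a lower median variation between tumours than all genes tested. Levels are compared between genes as transcripts-per-million (TPM), the counts per exon length of each gene scaled to 1 sum in every library. In the mean over the 10 tumours, 36 members were at 10 TPM or more, 14 at 1 to 10 TPM and 9 under 1 TPM. The median level of the tested members was 27.6 TPM, against 13.3 TPM for all genes tested. Across the 10 tumours the coefficient of variation of CPM had a median of 18% over the tested members and of 24.8% over all genes tested. These medians were not matched for level, and single members varied far more, such as Rab27a at 80.6%.

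The summed level of the family was 3626 ± 203 TPM (SD, n = 6) in Arf6Q67L tumours, with 3355 as the lowest, 3624 as the median and 3951 as the highest value. In the 4 control tumours it was 3461, 3229.8, 3211 and 3413 TPM, a mean of 3329 ± 127 TPM (SD, n = 4). The ranges of the 2 groups overlapped and the ratio of the means was 1.09. On the CPM scale with TMM factors the sums were 3635 ± 211 CPM in Arf6Q67L tumours and 3562 ± 127 CPM in control tumours, a ratio of 1.02, so the size of the difference depended on the scale. The same holds for single members. Rab2a averaged 317 TPM in Arf6Q67L and 302 TPM in control tumours, but 202 and 208 CPM. Fold changes below were fitted to counts with TMM factors and can differ from TPM levels in size or sign.

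The family's TPM was divided among its 4 largest compartments in nearly the same way in every tumour. The 15 RABs of the endoplasmic reticulum and Golgi held 28.8 ± 0.895% of it in Arf6Q67L tumours and 28.3 ± 0.659% in control tumours (SD, n = 6 and 4). The 8 RABs of the early endosome held 24.5 ± 1.41% in Arf6Q67L tumours and 24.8 ± 0.560% in control tumours. The 9 RABs of late endosomes, lysosomes and lysosome-related organelles held 22.1 ± 0.899% in Arf6Q67L tumours and 22.6 ± 0.688% in control tumours. The 13 RABs of recycling and polarised exocytosis followed, with 21.2 ± 0.678% in Arf6Q67L tumours and 20.6 ± 0.613% in control tumours. The 9 RABs of regulated secretion held 1.33 ± 0.136% in Arf6Q67L tumours and 1.52 ± 0.102% in control tumours. The remaining 5 members, among them the ciliary RABs Rab23 and Rab28, held 2.10 ± 0.174% in Arf6Q67L tumours and 2.13 ± 0.191% in control tumours.

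The 10 most abundant members held 61.9 to 65.6% of the family's TPM in each tumour. Rab7, which directs late endosomes to lysosomes, had 372, 421 and 486 TPM as lowest, median and highest level in Arf6Q67L tumours, against 389, 361, 360.3 and 325 TPM in the 4 control tumours. Rab5c, which acts in early endosome fusion, had 297, 341 and 359.6 TPM in Arf6Q67L tumours, against 329, 354, 357 and 428 TPM in control tumours. These 2 genes had the highest mean levels of the family, and Rab7 exceeded Rab5c in 9 of 10 tumours. Rab2a, a Golgi RAB, had 297, 322 and 334 TPM in Arf6Q67L tumours, against 314, 293, 314 and 287 TPM in control tumours. Rab1a, which serves transport from the endoplasmic reticulum to the Golgi, had 219, 236 and 259 TPM in Arf6Q67L tumours, against 227, 203, 194 and 213 TPM in control tumours. Rab2a exceeded Rab1a in all 10 tumours.

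Rab31, an early endosome RAB of the RAB5 group, had 202, 245 and 295 TPM in Arf6Q67L tumours, against 231, 166, 204 and 129 TPM in control tumours. Rab1b, the paralogue of Rab1a, had 182, 213 and 235 TPM in Arf6Q67L tumours, against 188, 178, 199 and 199 TPM in control tumours. Rab1a exceeded Rab31 in 5 of 10 tumours and Rab31 exceeded Rab1b in 7 of 10, so these neighbours had no fixed order. Rab10, a RAB of polarised exocytosis, had 124, 162 and 204 TPM in Arf6Q67L tumours, against 139, 124, 118 and 148 TPM in control tumours. Rab6a, which works at the Golgi, had 115, 148 and 199 TPM in Arf6Q67L tumours, against 143, 129, 115 and 118 TPM in control tumours. In both genes the highest levels were in Arf6Q67L tumours and the groups overlapped. Rab34 had 104, 127 and 177 TPM in Arf6Q67L tumours, against 123, 105, 131 and 129 TPM in control tumours. Rab11a, the RAB of the recycling endosome, had 100.5, 123 and 142 TPM in Arf6Q67L tumours, against 117, 103, 95.1 and 135 TPM in control tumours. Rab1b exceeded Rab10 in all 10 tumours, and the order among Rab10, Rab6a, Rab34 and Rab11a varied from tumour to tumour.

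Fitted log2 fold changes of these 10 genes (Arf6Q67L over control) ran from -0.27 for Rab5c to 0.30 ± 0.17 (SE) for Rab31. None had an adjusted p under 0.05 in edgeR's quasi-likelihood test with Benjamini-Hochberg adjustment over all genes, the lowest being 0.383 for Rab5c and 0.530 for Rab31. The signs of Rab1b (0.027), Rab34 (0.021) and Rab11a (-0.027) turned when single tumours were left out, so these 3 genes have no direction. With exons of the longest transcript in place of the union of exons, Rab7, Rab5c, Rab2a and Rab1a kept places 1 to 4.

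**Figure D1:**
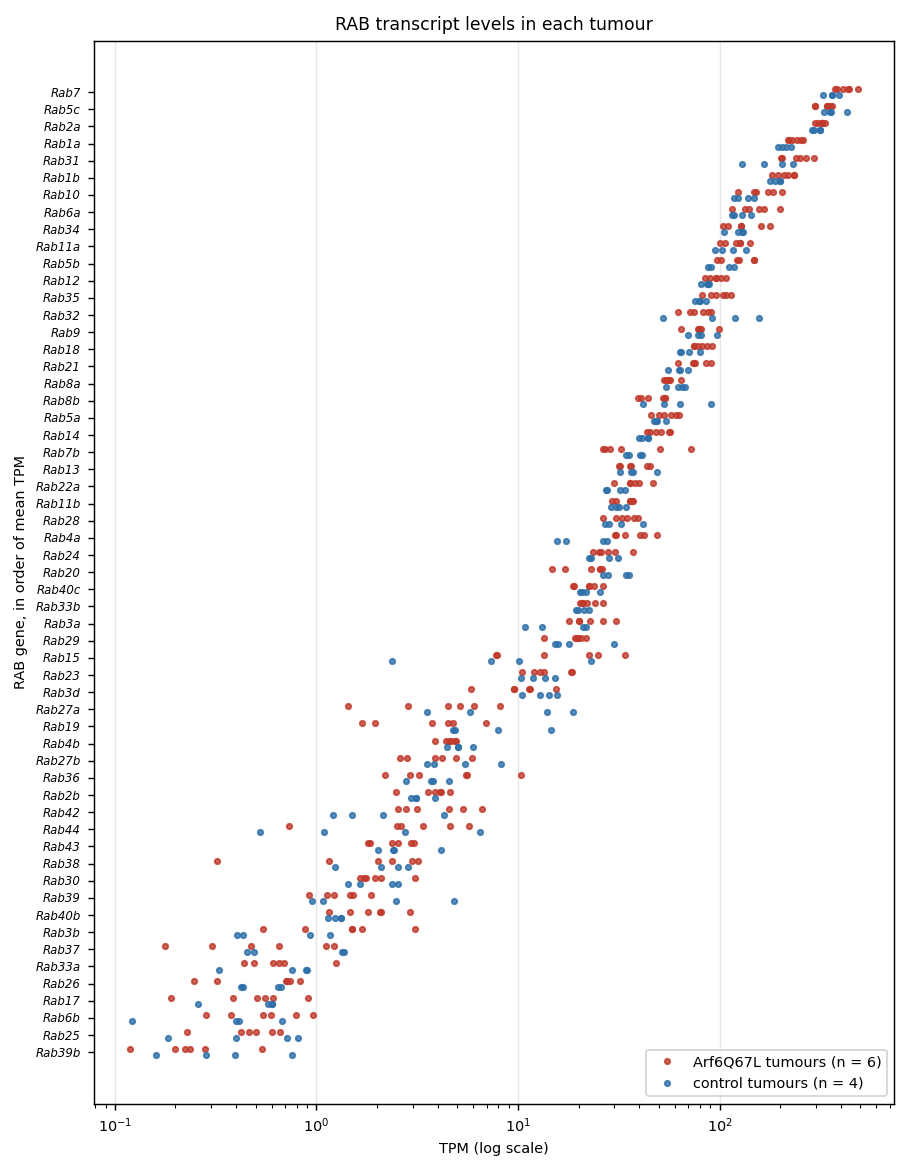
TPM on a log axis for the 57 members with a mean of at least 0.1 TPM, in order of mean level. Each point is 1 tumour, Arf6Q67L (red, n = 6) above control (blue, n = 4). Points of the 2 groups overlap for most members, but not for Rab4a and Rab20. The scatter between tumours tends to be wider under about 10 TPM, although Rab15, with a mean of 15.3 TPM, spans 2.38 to 33.9 TPM.

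The comparison of Arf6Q67L with control tumours asked which genes differ in level between the 2 groups. At an adjusted p under 0.05 edgeR called 0 of the 55 tested members and 0% of the 17286 genes tested. In counts simulated from these tumours edgeR called 24% of the genes changed 2-fold, so these 0 calls do not show equal levels. At an unadjusted p under 0.05 it gave 7 of 55 members (12.7%), where 11.7% of all genes tested had such a p, so the members' share was near the background. DESeq2 called 0 members at an adjusted p under 0.05, where it called 0.966% of all genes as higher and 1.42% as lower, and 8 members had an unadjusted p under 0.05 (14.5%, against 14.1% of all genes). Limma-voom with quality weights also called 0 members, where it called 0.0116% of all genes. By direction, the edgeR count was 1 member higher (1.82%, against 4.65% of all genes) and 6 lower (10.9%, against 7.05% of all genes).

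The fold changes of the members were centred on 0. Of the 55 tested, 27 were positive (49.1%, against 49.7% of all genes) and 28 negative. Their median was -0.002 on the log2 scale, the same as over all genes. They ranged from -1.27 for Rab27a to 0.92 for Rab3b, and their median size was 0.17, against 0.19 over all genes. The groups did not overlap in CPM for 2 members (3.64%, against 2.44% of all genes), Rab4a with higher levels in Arf6Q67L tumours (1.15% of all genes) and Rab20 with lower levels (1.28% of all genes). When each of the 10 tumours was left out in turn, these same 2 genes were the members that had an unadjusted p under 0.05 every time.

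**Figure D2:**
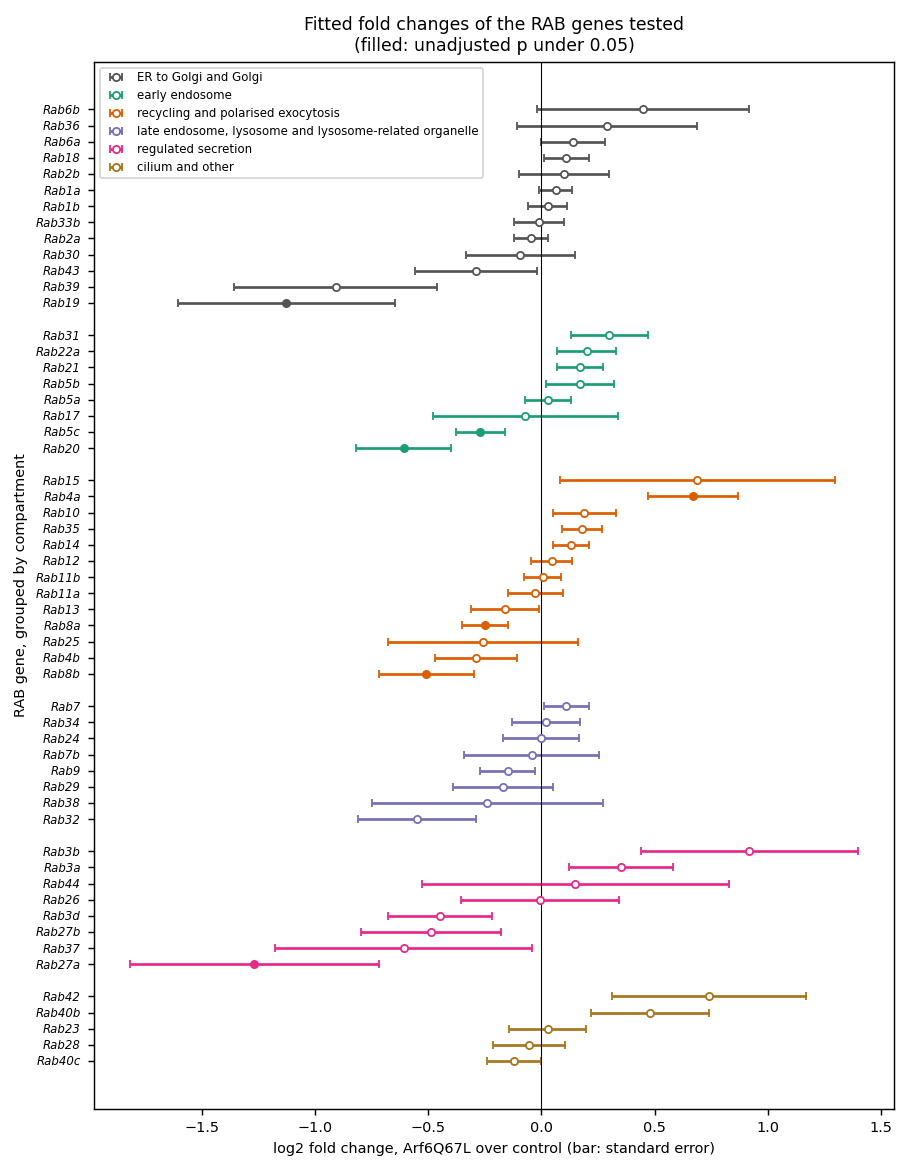
Fitted log2 fold change (Arf6Q67L over control) of the 55 tested RAB genes with its standard error, grouped and coloured by compartment. Filled points are the 7 genes with an unadjusted p under 0.05, of which Rab4a lies right of 0 and Rab5c, Rab8a, Rab20, Rab8b, Rab19 and Rab27a lie left of it.

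Among the RABs of recycling and polarised exocytosis, 7 of 13 fold changes were positive and 6 negative. Rab4a (ENSMUSG00000019478, chr8:123805985-123835287, plus strand), which returns cargo from early endosomes to the plasma membrane by the fast recycling route, had 16.5, 19.1 and 24.5 CPM as lowest, median and highest level in Arf6Q67L tumours. In control tumours it had 15.4, 10, 14.9 and 8.96 CPM. All 6 Arf6Q67L tumours thus lay above all 4 control tumours, the closest pair being at 16.5 CPM in an Arf6Q67L tumour and 15.4 CPM in a control tumour. Mean levels were 19.7 ± 3.46 CPM in Arf6Q67L tumours and 12.3 ± 3.31 CPM in control tumours (SD, n = 6 and 4). The log2 fold change was 0.67 ± 0.20 (SE), with an unadjusted p of 0.00669 and an adjusted p of 0.285 in edgeR's quasi-likelihood test with Benjamini-Hochberg adjustment. DESeq2 gave Rab4a an adjusted p of 0.0547, and the edgeR fold change stayed between 0.56 and 0.80 when single tumours were left out. The summed level of 6 T cell markers was highest, within each group, in the tumours with the least Rab4a. It was 71.1, 57.1 and 36.4 CPM in Arf6Q67L tumours 4 to 6, which had the least Rab4a of their group (16.6, 16.5 and 17 CPM), and 12.4 to 24.3 CPM in Arf6Q67L tumours 1 to 3. In controls 2 and 4, with the least Rab4a of all tumours, it was 183 and 257 CPM. In controls 1 and 3 it was 28.3 and 23.7 CPM, with 15.4 and 14.9 CPM of Rab4a. These controls thus had less of both than Arf6Q67L tumours 4 to 6. Among Arf6Q67L tumours 1 to 3 the T cell sum and Rab4a rose together. The part of T cells in the Rab4a difference was not tested.

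Rab8a and Rab8b, paralogues that carry vesicles to the plasma membrane and into the primary cilium, both had negative fold changes. Rab8a (chr8:72161200-72183904) had 72.5, 77.2 and 93.1 CPM as lowest, median and highest level in Arf6Q67L tumours, against 80.1, 100.1, 93.5 and 103 CPM in control tumours. The groups overlapped, with 4 of 6 Arf6Q67L tumours below every control tumour. Its log2 fold change was -0.25 ± 0.10 (SE; edgeR adjusted p = 0.382 after Benjamini-Hochberg adjustment). Rab8b (chr9:66843664-66919687) had 53.5, 69.1 and 78.7 CPM in Arf6Q67L tumours, against 79.6, 99.1, 63.6 and 141 CPM in control tumours. Control 4 stood highest and control 3 lay inside the range of the Arf6Q67L tumours. Its log2 fold change was -0.51 ± 0.21 (SE; edgeR adjusted p = 0.393 after Benjamini-Hochberg adjustment), and it was -0.26, with an unadjusted p of 0.160, without control 4.

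Rab35, a RAB of fast endocytic recycling whose signalling crosses that of ARF6, had 71.2, 83.5 and 92.1 CPM in Arf6Q67L tumours, against 76.7, 70.5, 72.6 and 72.5 CPM in control tumours. In 5 of 6 Arf6Q67L tumours the level was above all 4 control tumours. The fold change was small, at 0.18 ± 0.088 on the log2 scale (SE; edgeR adjusted p = 0.456 after Benjamini-Hochberg adjustment). Rab15, an endosomal RAB, had 10.4, 23.8 and 48.2 CPM in Arf6Q67L tumours, against 33.5, 11.1, 15 and 3.59 CPM in control tumours. Its fold change of 0.69 was as large as that of Rab4a, but its groups overlapped widely and the standard error was 0.61.

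Among the 8 RABs of the early endosome, 5 fold changes were positive and 3 negative. Rab20 (ENSMUSG00000031504, chr8:11453518-11478710, minus strand), which acts in the maturation of phagosomes in macrophages, had 5.86, 10 and 11.2 CPM in Arf6Q67L tumours, against 15.2, 12.8, 11.9 and 16.2 CPM in control tumours. All 6 Arf6Q67L tumours lay below all 4 control tumours. Mean levels were 9.19 ± 2.36 CPM in Arf6Q67L tumours and 14.0 ± 2.03 CPM in control tumours (SD, n = 6 and 4). The log2 fold change was -0.61 ± 0.21 (SE), with an unadjusted p of 0.0161 and an adjusted p of 0.345 in edgeR's quasi-likelihood test with Benjamini-Hochberg adjustment. Of the exon bases of Rab20, 25.6% also lie in E230013L22Rik on the opposite strand, and whether the counting used strand is not given in the sources used here. Mast cell markers were at their highest where Rab20 was lowest: the sum of 8 such genes was 1050.3 and 462 CPM in the Arf6Q67L tumours with 5.86 and 6.84 CPM of Rab20. That sum was 60.5 to 1050.3 CPM in Arf6Q67L tumours and 18.9 to 98.3 CPM in control tumours, with 8 of 8 fold changes positive, and its part in the Rab20 difference was not tested. Macrophage markers ran with Rab20 at its lowest and highest levels. The sum of 6 such genes was lowest, at 619 CPM, in the tumour with 5.86 CPM of Rab20. It was highest, at 2544 CPM, in control 4 with 16.2 CPM. Between these the order differed. Controls 1 and 3, with 15.2 and 11.9 CPM of Rab20, had sums of 1239 and 1005 CPM. Arf6Q67L tumours 1, 3, 4 and 5 had less Rab20 but sums of 1352, 1479.6, 1485 and 1392 CPM. Much of these sums was Mrc1, the only one of the 6 genes with a positive log2 fold change (0.60). Mrc1 was at 749, 770.5, 555 and 305 CPM in these Arf6Q67L tumours and at 494 and 236 CPM in controls 1 and 3. The part of macrophages was not tested either.

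Rab5c had 185, 223 and 237 CPM in Arf6Q67L tumours, against 229, 256, 253 and 307 CPM in control tumours. Of the 6 Arf6Q67L tumours, 4 lay below every control tumour. The log2 fold change was -0.27 ± 0.11 (SE; edgeR adjusted p = 0.383 after Benjamini-Hochberg adjustment), and -0.17 without control 4. The remaining RAB5 paralogues had fold changes of 0.17 (Rab5b) and 0.029 (Rab5a), and Rab21 and Rab22a, which also serve early endosomes, had 0.17 and 0.20. Rab17, an epithelial RAB, was low, with 0.108 to 0.515 CPM in Arf6Q67L tumours and 0.168 to 0.388 CPM in control tumours.

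The RABs of the Golgi and of the endoplasmic reticulum had 7 positive and 6 negative fold changes, most of them small. Rab19 (chr6:39381175-39390380) had 0.758, 1.96 and 3.41 CPM in Arf6Q67L tumours, against 2.43, 4.12, 2.43 and 7.48 CPM in control tumours. In 5 of 6 Arf6Q67L tumours it lay below every control tumour, and control 4 stood highest. Its log2 fold change was -1.13 ± 0.48 (SE; edgeR adjusted p = 0.406 after Benjamini-Hochberg adjustment), and -0.66 without control 4. Rab39 had 0.862, 1.14 and 1.72 CPM in Arf6Q67L tumours, against 1.01, 2.42, 0.916 and 4.70 CPM in control tumours. Its log2 fold change of -0.91 ± 0.45 (SE) was -0.26 without control 4, and the edgeR adjusted p was 0.459 after Benjamini-Hochberg adjustment.

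The melanosome RABs were measured in tumours without counts of the pigment genes Tyr and Dct. Rab27a (chr9:73044854-73097629), which links melanosomes to actin in pigment cells and releases lytic granules in cytotoxic lymphocytes, had 1.6, 5.66 and 9.71 CPM in Arf6Q67L tumours, against 7.12, 17.7, 4.44 and 23.8 CPM in control tumours. The control tumours were split, with controls 2 and 4 above all Arf6Q67L tumours and controls 1 and 3 among them. The log2 fold change was -1.27 ± 0.55 (SE; edgeR adjusted p = 0.415 after Benjamini-Hochberg adjustment), the most negative among the members, and it was -0.81 with an unadjusted p of 0.182 without control 4. Rab32 had 41.6, 56.2 and 63.6 CPM in Arf6Q67L tumours, against 68.1, 92.3, 39.4 and 119 CPM in control tumours. All 6 Arf6Q67L tumours lay within the range of the control tumours, and the log2 fold change was -0.55 ± 0.26 (SE), or -0.28 without control 4. Rab38 was low, at 0.321 to 3.19 TPM over the 10 tumours, with a log2 fold change of -0.24.

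T cell and macrophage markers, among others, were highest in the same control tumours as these genes. The sum of 6 T cell markers was 12.4 to 71.1 CPM in Arf6Q67L tumours and 28.3, 183, 23.7 and 257 CPM in controls 1 to 4, with 6 of 6 fold changes negative. The sum of 6 macrophage markers was 619 to 1485 CPM in Arf6Q67L tumours and 1239, 1808, 1005 and 2544 CPM in controls 1 to 4, with 5 of 6 fold changes negative. Controls 2 and 4, highest in both sums, were also the highest 2 tumours for Rab5c, Rab8a, Rab8b, Rab19, Rab27a, Rab32 and Rab39, and the lowest 2 for Rab4a. The same 2 tumours had the highest sums of NK and cytotoxic markers, at 179 and 259 CPM in controls 2 and 4. This also held for dendritic markers (20.9 and 41.1 CPM) and for Schwann and nerve markers (10.4 and 13.2 CPM). The pattern was thus not particular to T cells and macrophages. The part of any of these cells in the RAB differences was not tested. Without control 4 an unadjusted p under 0.05 was given to 2 members as higher and 1 as lower, where 9.03% of all genes had such a p. Without control 2 it had 1 higher and 1 lower, where 8.23% of all genes had such a p.

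Other RABs of late compartments and of the cilium had levels that did not separate the groups. Rab9, which returns receptors from late endosomes to the Golgi, was at 80.0 ± 11.3 TPM in Arf6Q67L tumours and 81.7 ± 11.3 TPM in control tumours (SD, n = 6 and 4). In CPM these means were 41.6 ± 4.74 and 46.3 ± 6.47, with a log2 fold change of -0.15 ± 0.12 (SE). Rab7b had 34.9, 41.9 and 106 CPM as lowest, median and highest level in Arf6Q67L tumours, against 52.2, 61.1, 51.2 and 62.1 CPM in control tumours. The control tumours lay close together, while 4 Arf6Q67L tumours were below and 2 above all of them, and the log2 fold change was -0.044 ± 0.30 (SE). Rab29, a RAB that recruits LRRK2, was at 19.1 ± 2.88 TPM in Arf6Q67L tumours and 19.7 ± 6.81 TPM in control tumours. Rab23, a regulator of Hedgehog signalling at the cilium, and Rab28 had fold changes of 0.028 and -0.056 on the log2 scale. Rab42 had 0.599, 0.877 and 1.6 CPM in Arf6Q67L tumours, against 1.04, 0.377, 0.529 and 0.302 CPM in control tumours, with a log2 fold change of 0.74 ± 0.43 (SE). These low levels of Rab42 overlapped through control 1.

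The recycling and exocytic RABs not described above had fitted fold changes close to 0 or low levels. Rab14, which acts between the Golgi and endosomes, was at 50.3 ± 5.45 TPM in Arf6Q67L tumours and 42.3 ± 2.11 TPM in control tumours (SD, n = 6 and 4). In CPM these means were 203 ± 14.4 and 186 ± 8.78, with a log2 fold change of 0.13 ± 0.081 (SE). Rab12 and Rab13 were at 96.1 ± 8.26 and 37.6 ± 5.72 TPM in Arf6Q67L tumours and at 85.8 ± 3.12 and 38.7 ± 7.19 TPM in control tumours. For Rab11b, the paralogue of Rab11a, the fitted log2 difference was 0.005 ± 0.081 (SE), while the epithelial RAB11 relative Rab25 was at 0.480 ± 0.152 TPM in Arf6Q67L tumours and 0.529 ± 0.290 TPM in control tumours. Among the Golgi RABs, Rab18, which also marks lipid droplets, had 153, 159 and 199 CPM in Arf6Q67L tumours, against 173, 159, 142 and 143 CPM in control tumours. Rab36 had 4.25, 7.97 and 18.4 CPM in Arf6Q67L tumours, against 5.43, 9.24, 7.36 and 7.62 CPM in control tumours. In both the groups overlapped and 1 Arf6Q67L tumour stood highest. Counts of Rab43, Rab24 and Rab2b carry the limit that 75.4%, 62.4% and 59.3% of their exon bases also lie in another gene.

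**Figure D3:**
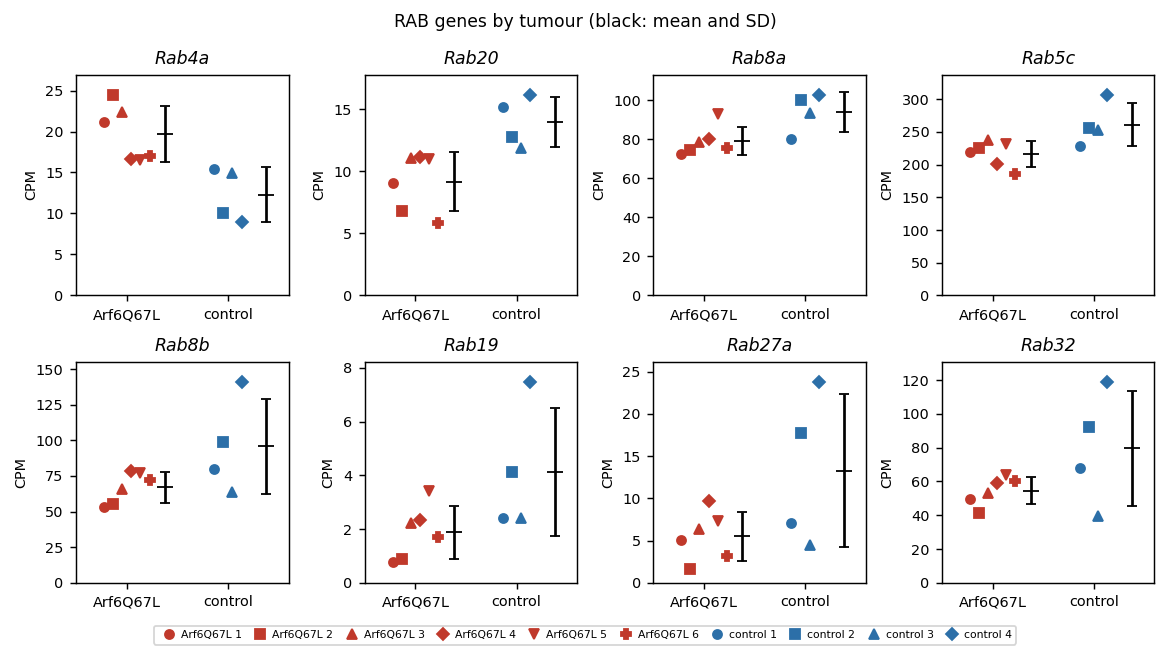
CPM (with TMM factors) of 8 RAB genes, 1 symbol per tumour, Arf6Q67L left (red, n = 6) and control right (blue, n = 4), with mean and SD in black. The groups are apart for Rab4a and Rab20, and control 4 (blue diamond) is the highest tumour for Rab8b, Rab19, Rab27a and Rab32.

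The RABs of regulated secretion were low and varied most. Rab3a and Rab3d, exocytic RABs, were at 22.9 ± 4.70 and 10.5 ± 3.14 TPM in Arf6Q67L tumours and at 16.6 ± 5.45 and 13.3 ± 2.15 TPM in control tumours (SD, n = 6 and 4). Their fold changes had opposite signs, 0.35 for Rab3a and -0.45 for Rab3d. Rab3b, the member with the highest fold change, had 0.607, 1.57 and 3.11 CPM in Arf6Q67L tumours, against 0.482, 0.472, 1.06 and 1.34 CPM in control tumours. Its log2 fold change was 0.92 ± 0.48 (SE; edgeR adjusted p = 0.488 after Benjamini-Hochberg adjustment), and 4 of 6 Arf6Q67L tumours lay above every control tumour. Rab44, a RAB known from mast cells, had 1.15, 4.43 and 8.90 CPM in Arf6Q67L tumours, against 10.4, 1.82, 4.48 and 0.872 CPM in control tumours. Rab27b, Rab37 and Rab26 had fold changes of -0.49, -0.61 and -0.008, and in none of these 4 genes did the groups separate.

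The balance of paralogues within a tumour does not depend on library scaling, and it was compared for 14 pairs in 10 subfamilies as the log2 ratio of TPM. In 10 of 14 pairs the same gene was the higher in all 10 tumours. Rab2a exceeded Rab2b by 6.41 ± 0.34 on the log2 scale in Arf6Q67L tumours and by 6.53 ± 0.22 in control tumours (SD, n = 6 and 4). Rab6a exceeded Rab6b by 8.07 ± 0.45 in Arf6Q67L tumours and by 8.47 ± 0.99 in control tumours, and Rab11a exceeded Rab11b by 1.81 ± 0.18 in Arf6Q67L tumours and by 1.83 ± 0.28 in control tumours. Within the RAB5 subfamily the order was Rab5c, Rab5b and Rab5a in every tumour. In the other 4 pairs the order varied: Rab1a exceeded Rab1b in 8 tumours, Rab3a exceeded Rab3d in 9, Rab8a exceeded Rab8b in 9 and Rab27a exceeded Rab27b in 7.

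The RAB4 pair had the lowest p of the 14. The log2 ratio of Rab4a over Rab4b was 2.71, 3.07 and 3.46 as lowest, median and highest value in Arf6Q67L tumours, against 2.64, 1.78, 2.13 and 1.62 in control tumours. The groups did not overlap, with means of 3.03 ± 0.28 (SD, n = 6) in Arf6Q67L tumours and 2.04 ± 0.45 (SD, n = 4) in control tumours. The difference was 0.99, with a two-sided exact permutation p of 0.00476, the smallest that 6 against 4 tumours allow, and an adjusted p of 0.0667 over the 14 pairs. Rab4b was at 4.54 ± 0.381 TPM in Arf6Q67L tumours and 5.13 ± 0.641 TPM in control tumours, with a log2 fold change of -0.29, opposite in sign to that of Rab4a. Of the exon bases of Rab4b, 65.0% also belong to the read-through gene Gm21983 on the same strand, and how reads in both were counted is not given in the sources used here.

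A further 2 pairs had an unadjusted exact p under 0.05. The log2 ratio of Rab3b over Rab3d was -4.11, -2.71 and -1.87 as lowest, median and highest value in Arf6Q67L tumours, against -4.85, -4.65, -3.91 and -3.72 in control tumours. The groups overlapped, and the difference was 1.37 (two-sided exact permutation p = 0.0190, 0.133 when adjusted over the pairs). The log2 ratio of Rab40b over Rab40c, paralogues that work with ubiquitin ligases, was -3.99, -3.64 and -3.02 in Arf6Q67L tumours, against -4.03, -4.02, -4.44 and -3.93 in control tumours. The groups overlapped slightly, and the difference was 0.54 (two-sided exact permutation p = 0.0381, 0.156 when adjusted over the pairs). No pair passed 0.05 after adjustment over the 14 pairs. That threshold was out of reach for 1 pair alone, since the smallest possible exact p becomes 0.0667 after the adjustment. Neither of these 2 further pairs kept an exact p under 0.05 in every set with 1 tumour left out. Without control 1 or control 2 the exact p of Rab3b over Rab3d was 0.0714. That of Rab40b over Rab40c was 0.0556 to 0.107 when any tumour other than Arf6Q67L tumour 3 or control 4 was left out. Fewer tumours allow fewer splits, so a higher p there does not mark a single tumour as decisive. The differences kept their sign, at 1.17 to 1.62 for Rab3b over Rab3d and 0.43 to 0.63 for Rab40b over Rab40c.

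**Figure D4:**
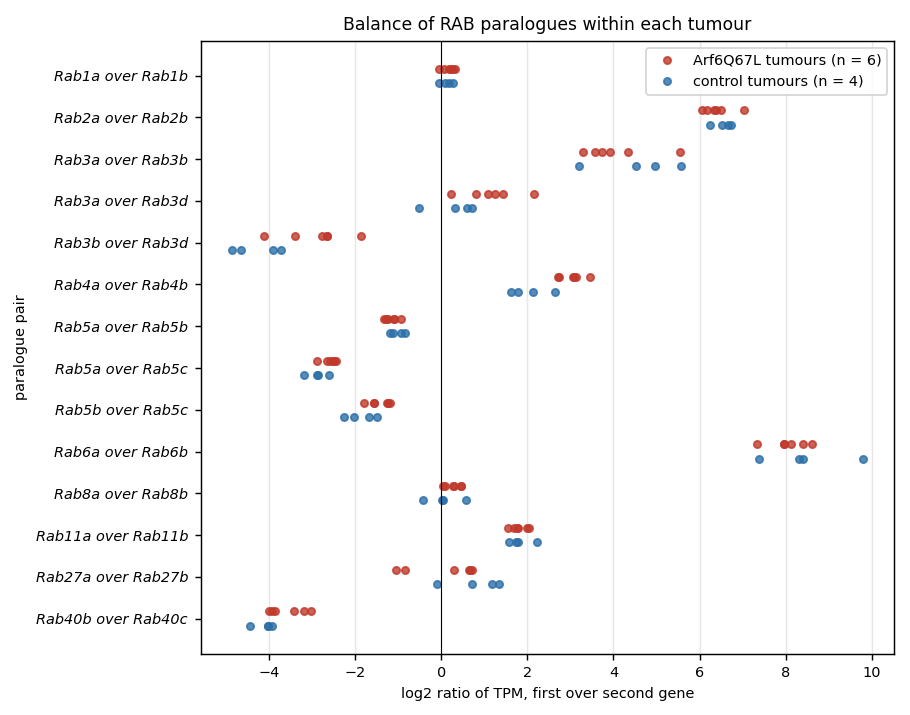
Log2 ratio of TPM of the first over the second gene of each paralogue pair, 1 point per tumour, with Arf6Q67L (red, n = 6) above control (blue, n = 4). The groups are apart for Rab4a over Rab4b, at 2.71 to 3.46 in Arf6Q67L tumours and 1.62 to 2.64 in control tumours.

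The proteins that drive the RAB cycle were read from a list of 130 genes, of which 129 were in the table and 127 were tested. In edgeR 0 of 127 had an adjusted p under 0.05, and 17 had an unadjusted p under 0.05 (13.4%, against 11.7% of all genes). Of these, 11 were higher (8.66%, against 4.65% of all genes) and 6 lower (4.72%, against 7.05% of all genes). The groups did not overlap in 7 of the 127 (5.51%, against 2.44% of all genes), 6 of them with higher levels in Arf6Q67L tumours. DESeq2 called 2 of the 127 (1.57%, against 2.39% of all genes), Sytl4 as higher and Mical1 as lower, so the share called was below the background. At an unadjusted p under 0.05 DESeq2 gave 20.5% of the list, against 14.1% of all genes.

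Both genes called by DESeq2 encode RAB effectors. Mical1, which takes apart actin filaments and is bound by RABs such as RAB8 and RAB35, had 12.7, 14.6 and 18.1 CPM in Arf6Q67L tumours, against 22.5, 24.6, 21.6 and 22.3 CPM in control tumours. All 6 Arf6Q67L tumours lay below all 4 control tumours, and the log2 fold change was -0.58 ± 0.12 (SE). The adjusted p was 5.72e-04 in DESeq2 and 0.233 in edgeR. Sytl4, encoding granuphilin, which binds RAB27 and docks secretory granules, had 1.92, 4.74 and 9.18 CPM in Arf6Q67L tumours, against 1.17, 1.73, 1.13 and 1.54 CPM in control tumours. All 6 Arf6Q67L tumours lay above all 4 control tumours, although tumours of the Arf6Q67L group differed widely among themselves. For Sytl4 the fitted log2 difference was 1.94 ± 0.49 (SE), and the adjusted p was 0.00671 in DESeq2 and 0.248 in edgeR. Ocrl, a phosphoinositide phosphatase bound by several RABs, had 63.2, 71.7 and 84.5 CPM in Arf6Q67L tumours, against 60.6, 62.0, 58.4 and 54.5 CPM in control tumours, again without overlap. Rims2, the RAB3 effector of the presynaptic active zone, had 2.23 ± 0.782 CPM in Arf6Q67L tumours and 0.852 ± 0.542 CPM in control tumours (SD, n = 6 and 4), and its log2 fold change was 1.38 ± 0.47 (SE).

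Among the 7 genes of prenylation and membrane extraction, 6 fold changes were positive, with a median of 0.21. Chml, which encodes a RAB escort protein that presents new RABs for prenylation, had 25.1, 34.0 and 63.4 CPM in Arf6Q67L tumours, against 22.0, 20.2, 23.7 and 20.8 CPM in control tumours. The groups did not overlap, and the log2 fold change was 0.78 ± 0.23 (SE), with an adjusted p of 0.0559 in DESeq2 and 0.285 in edgeR. Its paralogue Chm (0.34) and the prenyltransferase subunit gene Rabggta (0.32) had smaller fold changes of the same sign, and their groups overlapped.

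The 38 exchange factor genes had 18 positive and 20 negative fold changes. Sbf2, encoding an exchange factor for RAB28, had 76.8, 87.7 and 104 CPM in Arf6Q67L tumours, against 76.5, 67.8, 64.8 and 63.4 CPM in control tumours. Dennd5a, encoding an exchange factor for RAB39, had 175, 203 and 225 CPM in Arf6Q67L tumours, against 172, 161, 163 and 148 CPM in control tumours. Gapvd1, encoding an exchange factor for RAB5, had 91.7, 100.4 and 117 CPM in Arf6Q67L tumours, against 89.3, 85.8, 75.5 and 85.0 CPM in control tumours. In these 3 genes every Arf6Q67L tumour lay above every control tumour, by a narrow margin, and the log2 fold changes were 0.37, 0.31 and 0.28. Dennd6b, another gene of the DENN family, had 12.9 ± 3.41 CPM in Arf6Q67L tumours and 20.4 ± 2.99 CPM in control tumours (SD, n = 6 and 4), and its log2 fold change was -0.66 ± 0.21 (SE). The edgeR adjusted p of these 4 genes was 0.283 to 0.318 after Benjamini-Hochberg adjustment.

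The 34 genes of GTPase-activating proteins had 22 positive and 12 negative fold changes, and in none of them did the groups separate. The 4 with the lowest p were Tbc1d8 (-0.52), Tbc1d16 (0.98), Tbc1d9 (-0.54) and Usp6nl (0.22), the last encoding a GTPase-activating protein for RAB5. Tbc1d16, which acts on RAB4 and RAB5, had 6.73, 16.7 and 20.8 CPM in Arf6Q67L tumours, against 4.69, 12.1, 11 and 4.19 CPM in control tumours. Its groups overlapped, and its edgeR adjusted p was 0.403 after Benjamini-Hochberg adjustment. The kinase genes Lrrk1 and Lrrk2, whose products phosphorylate RABs, and Ppm1h, which encodes the phosphatase that reverses this, had log2 fold changes of -0.13, 0.38 and -0.60. Lrrk2 had 123, 298 and 569 CPM in Arf6Q67L tumours, against 354, 202, 228 and 166 CPM in control tumours, so that its spread within groups exceeded the difference between them.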

How the data were processed

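The authors deposited 1 table of raw counts per gene for the 10 tumours, and all 10 columns were matched to samples by their library identifiers. The submitters' processing notes list GRCm38 as build and, with no role stated, DESeq2 1.18.0, featureCounts 1.5.1 and STAR 2.5.2b, and libraries were TruSeq Stranded mRNA, per the labels' protocols. Symbols, coordinates and exon lengths came from GENCODE M21 (52489 identifiers, 99.7%). In R 4.3.3 the counts were fitted with edgeR 4.0.16 (low counts removed by filterByExpr, minimum 10, then TMM factors, robust glmQLFit, glmQLFTest, Benjamini-Hochberg adjustment over 17286 genes, threshold 0.05), and the code was tested on simulated data. In the simulated data edgeR recovered 24% of the genes changed 2-fold and 61% of those changed 4-fold, with 2 false calls. DESeq2 recovered 42% and 82%, with 37 false calls. The common biological coefficient of variation was 0.416. TPM used the union of a gene's exons. Paralogue ratios added 0.5 counts and used a two-sided exact permutation test.

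Named in full were the 10 members of lowest p, the 10 of highest TPM, the paralogue pairs with p under 0.05 and the 4 regulators of lowest p in each role, of which 1 is not reported here. Rab15, Rab3a, Rab3b, Rab3d, Rab44, Rab9, Rab7b, Rab29, Rab42, Rab14, Rab18, Rab36 and the members given by a mean or fold change alone were added after their values were seen. The members and lists were chosen with earlier results of these data known. Alternatives were DESeq2 1.42.0, RLE factors, no filter, limma 3.58.1 voom with quality weights, TPM over the longest transcript, and each tumour left out. Tumours are numbered in accession order within a group, so the numbers pair none.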

Additional observations from a re-analysis of the deposited data

Results flagged for a closer look

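In 3 of 110 sets of values (55 members in each of the 2 groups), 1 tumour lay far from the others of its group, where chance gives about 1 in 20. Rab18, a RAB of the endoplasmic reticulum and lipid droplets, was at 199 CPM in Arf6Q67L tumour 3, and at 153 to 169 CPM in the other Arf6Q67L tumours. Rab40c was at 25.4 CPM in control tumour 3 and at 20.8 to 21.3 CPM in the other control tumours, and that tumour also had the lowest ratio of Rab40b over Rab40c, -4.44. Rab17 was at 0.168 CPM in control tumour 4 and at 0.377 to 0.388 CPM in the other control tumours, a level of few counts in every library.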

How the results depend on the processing

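Under DESeq2, edgeR with RLE factors, no low-count filter, limma-voom with quality weights and each tumour left out, 0 members had an adjusted p under 0.05, and the 10 members of lowest p kept their signs. Over all genes, DESeq2 called 413 and limma-voom 2, and leaving out tumours gave 0 to 1, against 0 by edgeR with all tumours. DESeq2 called 2 RAB cycle genes. Limma-voom gave Rab11a a fold change of 0.080. Leaving out tumours gave -0.10 to 0.088 for Rab11a, with 0.019 and 0.025 among the values above 0, -0.019 to 0.066 for Rab1b and -0.053 to 0.084 for Rab34, with -0.051 and -0.034 among the values under 0. It moved the median log2 fold change of the members between -0.032 and 0.036. The difference of Rab3b over Rab3d ranged from 1.17 to 1.62 and that of Rab40b over Rab40c from 0.43 to 0.63. The family total, Arf6Q67L minus control, was 72.9 on the CPM scale, an alternative chosen after seeing the data. No paired analysis was possible because the labels give the tumours no numbers shared between groups. Members of few counts, such as Rab6b, Rab17, Rab25 and Rab26, allow no firm statement at this depth.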
